A study of Mus musculus with 20 samples.

Results

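Oxidative phosphorylation transcripts were followed across 5 groups of cells sorted from bone as osteoblastic. The set holds the genes whose symbols begin as those of the subunits of respiratory complexes I to V do (Nduf with a, b, c, s or v, the 4 Sdh genes, Uqcr and Cyc1, Cox4 to Cox8, and Atp5), without Ndufa4l2. For each symbol the probe set with the highest mean over all arrays stood for the gene, which gave 73 genes of the 9129 tested, from 108 probe sets. Of the 73 genes, 67 were counted as subunits from their names. They were placed as 34 in complex I, 4 in complex II, 7 in complex III, 12 in complex IV (Ndufa4 and Cox7a2l among them) and 10 in complex V. The other 6, Ndufaf2 to Ndufaf7, match by name but encode assembly factors of complex I, which help to build the complex and are not part of it. Cycs, Cox6a2, Cox7a1, Cox8b, Atp5g1 and Atp5g2 were not analysed here.

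The study measured RNA of cells taken straight from untreated wild-type male C57BL6 mice aged 8 weeks, on 20 arrays in 5 groups of 4. All groups were gated as negative for blood lineage markers (Lin-) and CD31, and as positive for CD51, the integrin alpha-v chain. By their labels SL cells were gated as low in Sca-1 and negative for PDGFRa. The other groups were gated as Sca-1-negative, with AB positive for both PDGFRa and PDGFRb, B for PDGFRb alone and A for PDGFRa alone, while DN was gated as PDGFRa-negative. The labels leave the PDGFRb gate of DN and SL unclear, and DN is read as double-negative from its code alone. The labels do not say whether the 4 arrays of a group came from separate mice or sorts, so each p-value reflects spread among arrays that may be technical. In sorted bulk samples, fewer cells of a type and less RNA per cell cannot be told apart.

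Oxidative phosphorylation turns electrons from NADH and succinate into ATP in the inner mitochondrial membrane. Complexes I and II feed electrons into ubiquinone, complex III passes them to cytochrome c, complex IV reduces oxygen, and complex V, the ATP synthase, uses the resulting proton gradient. Osteoblasts are known to use both respiration and glycolysis, and growth plate chondrocytes, which sit in poorly vascularised cartilage, rely strongly on glycolysis. A few subunits of complex IV exist as isoforms, among them Cox4i1, found in most tissues, and Cox4i2, known from lung and from hypoxic cells.

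Promoters of respiratory genes often carry sites for the factors NRF1, ETS family members and YY1, and RefSeq promoter windows (GRCm38.p6, 250 bases before to 50 after the annotated start) were searched for 3 core motifs on both strands, GCGCANGCG for NRF1, CCGGAAG for ETS factors and AANATGGCG for YY1. Windows were found for 60 of the 73 members (64 windows). At least 1 of the 3 motifs was present in 35 of the 64 windows (54.7%), against 30.5% of the 9482 windows of all genes tested and 15.45% of all 32851 windows. The NRF1 core stood in 26.6% of the member windows (13.0% for genes tested, 6.25% for all windows), the ETS core in 21.9% (17.1% and 8.86%) and the YY1 core in 15.6% (5.2% and 2.38%). Different motifs overlapped in none of the 64 windows. The NRF1 core was first searched with 1 more letter (10 letters) and was shortened after that result had been seen. In the longer form it stood in 23.4% of the member windows (9.6% for genes tested, 4.6% for all windows), and at least 1 motif in 53.1% (28.1% and 14.2%). These matches are a description of letters and not of bound sites. Of the 12 members that differed among the 5 groups, 9 had a window, with 10 windows in all. The motifs were found in 4 of these 10, against 54.7% of all member windows. They began between 2 bases before and 35 bases after the annotated start. The 4 genes were Ndufs7, Ndufs4, Ndufb10 and Uqcrc1 (3 with the longer NRF1 form, without Ndufb10). Their windows are printed because they carry the motifs among the members that varied, with the motif in capitals: the YY1 core for Ndufs7 (chr10:80249199-80249498, plus strand) and Ndufs4 (chr13:114388045-114388344, minus strand), and the NRF1 core for Ndufb10 (chr17:24724374-24724673, minus strand) and Uqcrc1 (chr9:108936398-108936697, plus strand), where the longer run of capitals is matched on both strands.
Ndufs7: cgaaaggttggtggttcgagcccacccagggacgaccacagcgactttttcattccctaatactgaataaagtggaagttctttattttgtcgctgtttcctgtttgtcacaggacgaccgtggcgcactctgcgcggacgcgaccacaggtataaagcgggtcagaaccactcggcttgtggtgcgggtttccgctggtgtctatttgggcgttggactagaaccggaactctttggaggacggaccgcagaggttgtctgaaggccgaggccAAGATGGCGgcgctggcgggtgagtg
Ndufs4: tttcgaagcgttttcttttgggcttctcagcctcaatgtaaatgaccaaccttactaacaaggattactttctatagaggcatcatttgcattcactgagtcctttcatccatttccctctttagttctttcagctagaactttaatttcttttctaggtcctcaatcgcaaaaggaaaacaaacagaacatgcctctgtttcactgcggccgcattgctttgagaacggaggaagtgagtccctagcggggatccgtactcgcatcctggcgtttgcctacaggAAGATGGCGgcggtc
Ndufb10: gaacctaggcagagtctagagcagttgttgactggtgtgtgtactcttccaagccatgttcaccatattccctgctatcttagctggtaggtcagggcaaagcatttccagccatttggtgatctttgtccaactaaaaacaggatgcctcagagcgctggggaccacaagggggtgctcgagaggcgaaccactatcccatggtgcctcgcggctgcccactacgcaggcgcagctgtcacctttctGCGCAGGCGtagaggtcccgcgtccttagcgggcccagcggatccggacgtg
Uqcrc1: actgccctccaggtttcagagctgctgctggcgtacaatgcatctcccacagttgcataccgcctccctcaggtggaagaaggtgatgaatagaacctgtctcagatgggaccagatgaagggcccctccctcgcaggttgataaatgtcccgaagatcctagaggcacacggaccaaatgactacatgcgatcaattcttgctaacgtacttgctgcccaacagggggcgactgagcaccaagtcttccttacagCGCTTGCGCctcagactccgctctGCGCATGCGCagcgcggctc

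Values are the authors' log2 array signal, levels are means ± SD of 4 arrays, and differences are log2 ± SE from limma, called at an adjusted p under 0.05 over all 9129 genes. Array medians lay between 6.40 and 6.46 and within-group correlations across genes between 0.951 and 0.983. The number of arrays limits the precision. The transcripts of the sorted proteins did not all follow the gates. Pdgfra went against the label in SL, where its 4 arrays, at 10.10 to 10.34, lay above those of every other group, and in B, where they overlapped A. It read 9.54 to 9.80 in AB, 8.63 to 9.54 in B, 8.95 to 9.15 in A and 7.50 to 8.16 in DN. Pdgfrb averaged 10.21 in SL, 10.62 in AB, 10.56 in B, 9.27 in A and 8.78 in DN, so SL stood near the groups gated as PDGFRb-positive. In some arrays Ly6a also went against its gate. Ly6a, which encodes Sca-1, read 10.18 and 10.90 in B replicates 3 and 4 and 8.72 and 10.05 in AB replicates 3 and 4, against 7.01 to 7.24 in replicates 1 and 2 of both groups, and SL lay at 10.30 to 10.79. Counts that rest on B and AB are therefore also given from replicates 1 and 2 of those groups alone. Of the osteoblast markers listed, 9 of 12 were measured, and their summed intensity was 36655 to 39253 in SL, 43677 to 46634 in AB, 40230 to 46646 in B, 42588 to 45783 in A and 39689 to 44238 in DN. Markers of other cell types were also present. Ptprc, which encodes CD45 of blood cells, averaged 6.89 in SL, 7.54 in AB, 8.63 in B, 7.70 in A and 7.05 in DN. Its arrays ran from 5.76 to 8.00 in SL, 6.70 to 8.79 in AB and 7.73 to 9.43 in B. They ran from 6.64 to 8.19 in A and 5.68 to 8.48 in DN, and replicate 4 was the highest in each group. Pecam1, which encodes CD31, averaged 6.80 in SL, 6.64 in AB, 7.03 in B, 6.27 in A and 6.36 in DN. The neutrophil list (12 of 14 measured) summed to 8751 to 19540 in SL, 11444 to 28048 in AB, 20697 to 34775 in B, 12603 to 23183 in A and 9018 to 18892 in DN. Its mean log2 signal was also highest in replicate 4 of each group.

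Most respiratory chain transcripts had group means close to each other. By limma's moderated F test over the 5 groups, 12 of the 73 members differed (16.4%), against 50.6% of all genes. That count was 7 without DN replicate 3 or B replicate 1, and 8 when AB and B kept replicates 1 and 2 only. The median gap between a member's highest and lowest group mean was log2 0.27, against 0.42 for all genes, while the median residual SD between arrays was 0.189 for members and 0.185 for all genes. The gap stayed under 0.5 in 69 of the 73 members, against 5273 of 9129 genes. It exceeded 1 in 1 member, Cox4i2, and in 1596 of all genes. The lists of mitochondrial ribosomal proteins, enzymes of the TCA cycle and mitochondrial import proteins had medians of 0.26, 0.28 and 0.28, and 14 of 60, 2 of 16 and 2 of 17 of their genes passed the F test. The glycolysis list had a median gap of 0.93, with 10 of 14 called. It also holds glucose and lactate transporters and regulators, and Ndufa4l2, which is described with Cox4i2, was taken off it after its values were seen (1.06 and 11 of 15 with it). The plot of the spread of group means per list shows each gene of these lists.

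**Figure D1:**
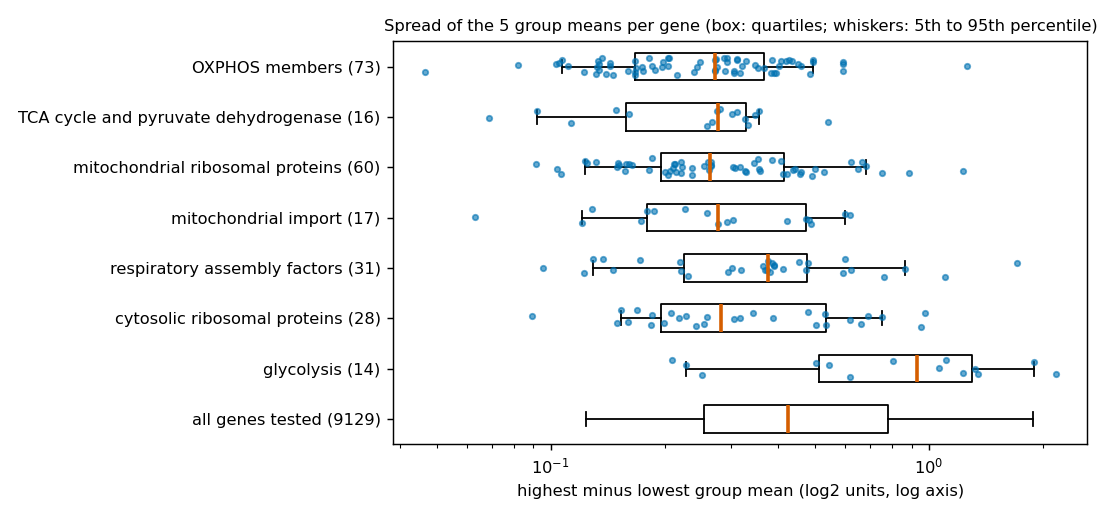
Gap between the highest and the lowest of the 5 group means for each gene (log2 units, on a log axis), by list, with the number of genes in brackets. Points are genes, boxes span the quartiles with the median in orange, and whiskers reach the 5th and 95th percentiles. The members centre on 0.27, with Cox4i2 at 1.26 apart on the right, and the glycolysis list, without Ndufa4l2, on 0.93.

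Cox4i2 carried the largest differences of the set. It encodes an isoform of complex IV subunit 4, and its single probe set belongs to ENSMUSG00000009876 (chromosome 2, 152754173 to 152765037 in the deposited tables, which name no build). Its 4 arrays read 8.03, 7.92, 7.92 and 7.95 in SL, 7.83, 7.76, 7.63 and 7.80 in AB, and 7.92, 8.21, 8.28 and 7.74 in B, against 8.89, 8.70, 8.44 and 9.29 in A and 9.36, 8.84, 8.77 and 9.08 in DN. Every array of SL, AB and B lay below every array of A and DN. The gene fell by 1.05 ± 0.16 in SL against DN (adjusted p = 1.71e-05), which is 2.08-fold. It fell by 1.08 ± 0.16 in AB against A (adjusted p = 2.15e-05) and fell by 0.79 ± 0.16 in B against A (adjusted p = 0.000632). Against DN it fell by 1.26 ± 0.16 in AB and by 0.97 ± 0.16 in B (adjusted p = 1.69e-06 and 4.2e-05), and against A it fell by 0.87 ± 0.16 in SL (adjusted p = 0.000232). The calls of the first 3 pairs held in all 29 alternative settings. No difference was called between A and DN (-0.18, 95% interval -0.51 to 0.15, adjusted p = 0.621) or between AB and B (-0.28, 95% interval -0.61 to 0.05, adjusted p = 0.612).

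The partner isoform did not share this pattern of levels. Cox4i1, the general isoform of the same subunit, averaged 11.45 ± 0.11 in SL, 11.45 ± 0.18 in AB, 11.53 ± 0.09 in B, 11.33 ± 0.14 in A and 11.24 ± 0.17 in DN. No main pair called it, and B exceeded DN by 0.29 ± 0.10 (adjusted p = 0.0283). Growth plate chondrocyte markers moved with Cox4i2. The list (11 of 12 measured) summed to 26860 to 27761 in SL, 22545 to 29436 in AB and 26468 to 34338 in B, against 49066 to 52648 in A and 48423 to 60115 in DN, and 10 of its 11 genes were called lower in each of SL against DN, AB against A and B against A. Markers of Schwann cells (7 of 8 measured) were called lower for 6, 7 and 6 genes in these pairs. Only 2 of 15 listed skeletal muscle markers were measured, and these were lower in each pair. Markers of smooth muscle and pericytes, vessel-wall cells known to express Cox4i2, ran the other way. They (9 of 11 measured) summed to 2771 to 4233 in SL, 4117 to 6631 in AB and 7223 to 14182 in B, against 2087 to 3424 in A and 1670 to 2602 in DN. The part of these cell types in the Cox4i2 difference was not tested. Ndufa4l2, a relative of the complex IV subunit Ndufa4 that is known as a hypoxia-induced gene and is not a member, differed by -0.75 ± 0.13 in SL against DN, -1.67 ± 0.13 in AB against A and -1.30 ± 0.13 in B against A (adjusted p = 9.35e-05, 9.11e-09 and 3.26e-07).

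**Figure D2:**
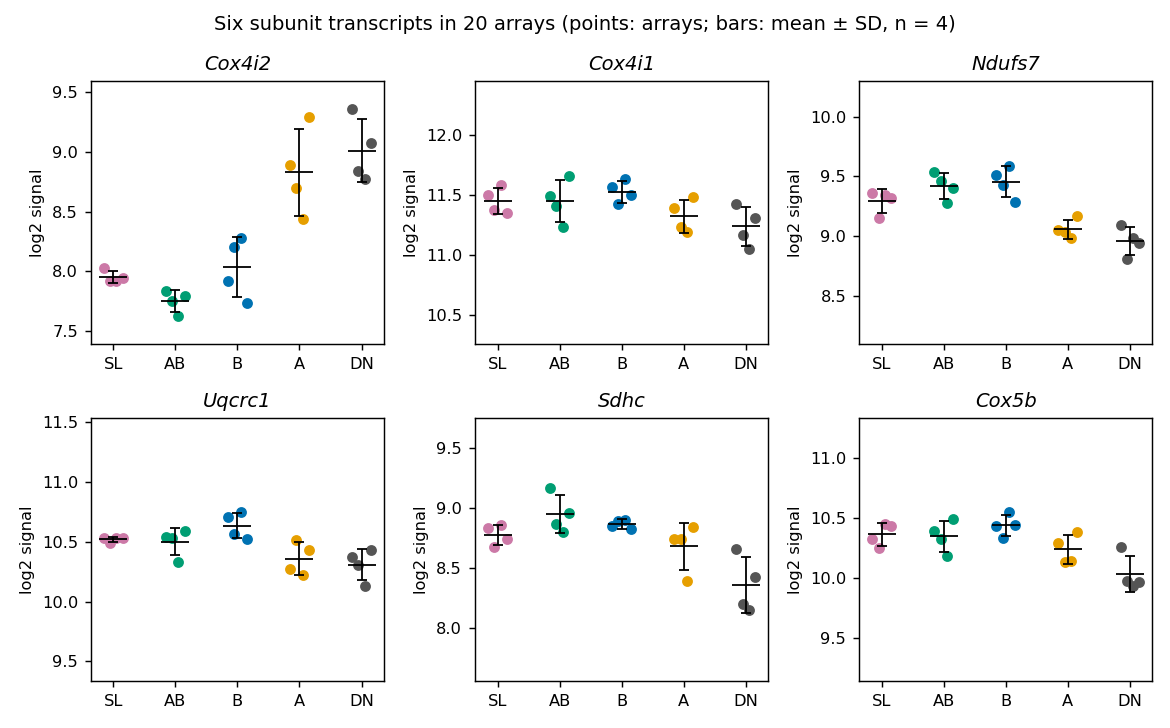
Log2 array signal of 6 subunit transcripts in the 4 arrays of SL, AB, B, A and DN. Points are arrays, and bars are the mean ± SD (n = 4), with every panel spanning the same log2 range. Cox4i2 is lower in all SL, AB and B arrays than in all A and DN arrays, and the other 5 genes span less than log2 0.6 between group means.

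SL cells were set against DN cells. By label the pair differs in the Sca-1 gate, and the Pdgfra and Pdgfrb transcripts were also higher in every SL array than in any DN array. Of the 73 members, 10 were called higher and 2 lower, where 45.2% of all genes were called in either direction (23.9% higher, 21.3% lower). The members' median difference was 0.12, against 0.01 for all genes, and 55 of 73 were above 0. The count of 12 became 22 without DN replicate 1 and 7 without DN replicate 3. Markers of other cells moved with this pair. All 6 measured markers of Sca-1-positive fibroblasts (of 8 listed, Ly6a among them) were called higher, with a median of 3.40 and sums of 8136 to 10610 in SL against 805 to 1780 in DN. Of 9 osteoblast genes 2 were called higher and 5 lower, 7 of 9 markers of marrow stromal reticular cells were higher and 1 lower, and 6 of 7 proliferation genes were lower. Their part in the member counts was not tested. Beside Cox4i2, the lower gene was Ndufs1, the large iron-sulphur subunit of complex I, at -0.24 ± 0.09 (adjusted p = 0.0348), a call that was lost in 11 of 29 alternatives. The differences of the 3 Ndufs1 probe sets in this pair ran from -0.24 to -0.09. By complex, 5 of 34 members of complex I, 2 of 4 of complex II, none of 7 of complex III, 1 of 12 of complex IV and 2 of 10 of complex V were called higher.

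Among complex I subunits, Ndufs7 had the smallest p in the F test (adjusted p = 0.000186). Ndufs7, an iron-sulphur subunit on the path to ubiquinone (chromosome 10, 80249121 to 80256794 in the deposited tables), read 9.36, 9.15, 9.35 and 9.32 in SL, 9.54, 9.46, 9.28 and 9.41 in AB and 9.52, 9.43, 9.59 and 9.29 in B, against 9.05, 9.03, 8.98 and 9.17 in A and 9.10, 8.81, 8.99 and 8.95 in DN. All arrays of AB and B lay above all arrays of A and DN, while the lowest SL array fell within the range of A. SL exceeded DN by 0.34 ± 0.09 (adjusted p = 0.00427), AB exceeded A by 0.36 ± 0.09 (adjusted p = 0.00365) and B exceeded A by 0.39 ± 0.09 (adjusted p = 0.00199). Each of these calls held in all 29 alternatives. The accessory subunits Ndufa13 and Ndufv3 rose by 0.42 ± 0.12 and 0.45 ± 0.14 in SL against DN (adjusted p = 0.00735 and 0.0116), and Ndufb10 by 0.33 ± 0.12 (adjusted p = 0.0264).

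Complex II, succinate dehydrogenase, links the TCA cycle to the chain and has 4 subunits. Sdhc, a membrane anchor, read 8.83, 8.67, 8.86 and 8.74 in SL, 9.16, 8.86, 8.80 and 8.96 in AB, 8.85, 8.89, 8.90 and 8.82 in B, 8.74, 8.74, 8.39 and 8.84 in A and 8.66, 8.19, 8.15 and 8.42 in DN. Relative to DN it was higher by 0.42 ± 0.12 in SL, by 0.59 ± 0.12 in AB and by 0.51 ± 0.12 in B (adjusted p = 0.00542, 0.00028 and 0.00119), and its arrays did not overlap in these pairs. Sdhb, the iron-sulphur subunit, rose by 0.37 ± 0.13 in SL against DN (adjusted p = 0.0329), a call lost in 9 of 29 alternatives, and by 0.43 ± 0.13 in B against DN (adjusted p = 0.0141). In SL against DN the differences of the 2 Sdhb probe sets were 0.15 and 0.37, the latter being the one used. The catalytic subunit Sdha averaged 10.12, 10.02, 10.05, 10.03 and 10.17 in SL, AB, B, A and DN, and the other anchor Sdhd averaged 8.92, 8.86, 8.95, 8.91 and 8.78. Neither passed the F test (adjusted p = 0.38 and 0.797).

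In SL against DN the share of members called in either direction was 0%, 16.7% and 20% in complexes III, IV and V, against 17.6% in complex I. Uqcrc1, a core protein of complex III, read 10.71, 10.57, 10.75 and 10.53 in B, against 10.27, 10.52, 10.23 and 10.43 in A, and was higher in B by 0.28 ± 0.09 (adjusted p = 0.0249) with no overlap. Cox5b, a nuclear-encoded subunit of complex IV, read 10.32, 10.25, 10.45 and 10.44 in SL, against 10.25, 9.97, 9.93 and 9.97 in DN. It was higher in SL by 0.33 ± 0.09 (adjusted p = 0.00684), and DN replicate 1 alone reached the SL range. Atp5d, the delta subunit of the ATP synthase, read 9.90, 9.94, 10.19 and 9.96 in SL, against 9.80, 9.71, 9.77 and 9.73 in DN, and was higher in SL by 0.24 ± 0.08 (adjusted p = 0.0228), without overlap. Atp5k, its subunit e, was higher in SL than in DN by 0.46 ± 0.16 (adjusted p = 0.0217).

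The other genes of isoform families and the assembly factors had small gaps between group means. Cox6a1, Cox6b1, Cox6b2, Cox7a2, Cox7a2l, Cox8a and Atp5g3 spanned 0.12 to 0.38 between group means, and none passed the F test (lowest adjusted p = 0.309, for Cox7a2l). Cox6b2, known as a testis isoform, is uncertain, since its 2 probe sets differed by 0.16 and 1.22 in SL against DN. The 6 assembly factors of complex I spanned 0.13 to 0.40 and none passed the F test. Ndufaf4 fell by 0.40 ± 0.15 in B against DN (adjusted p = 0.0399), and the remaining 5 were called in no pair. Within each complex the highest mean level belonged to Ndufb2, Sdha, Uqcrh, Cox4i1 and Atp5j, at 11.65, 10.08, 11.75, 11.40 and 11.63, and the lowest to Ndufab1, Sdhc, Uqcrfs1, Cox8a and Atp5k, at 7.10, 8.72, 8.49, 8.20 and 7.34. Probes differ in their response, so these levels give no order between genes.

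AB and B, gated as PDGFRb-positive, were each set against A, and B differs from A in the PDGFRa gate as well. In AB against A, 1 member (Ndufs7) was called higher and 1 (Cox4i2) lower, where 32.9% of all genes were called (17.7% higher, 15.2% lower). Residuals of AB and A arrays with the same replicate number correlated, though pairing is not established. In a fit with the replicate number as a block, 4 were called higher and 1 lower. The additional calls were Ndufa3, Ndufa5 and Ndufs4, complex I subunits higher in AB by 0.26, 0.25 and 0.37. Without A replicate 1 the total was 4, and 3 when AB and B kept replicates 1 and 2 only. In B against A, 3 members, among them Ndufs7 and Uqcrc1, were higher and 1 (Cox4i2) lower, where 29.7% of all genes were called (15.1% higher, 14.6% lower). The call of Uqcrc1 was lost in 7 of 29 alternatives. The count was 2 without B replicate 1 or B replicate 3, and 3 when B and AB kept replicates 1 and 2 only. With the replicate block 8 were higher and 1 lower, though whether the numbers pair B and A arrays is uncertain. The median difference was 0.06 in AB against A and 0.10 in B against A, against 0.03 for all genes in both. Markers of marrow stromal reticular cells moved with these pairs, 8 of 9 being called higher in AB and 7 of 9 in B, and their part was not tested.

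In the pairs read from the labels as differing in the PDGFRa gate alone, no member was called. In A against DN none of the 73 passed by limma (3.53% of all genes did), 5 had an unadjusted p under 0.05, and the authors' deposited table holds none with a q under 0.05 (2.56% of its genes). The members' median was 0.08 and 58 of 73 lay above 0, against 0.00 for all genes. Without DN replicate 1 the count was 1. In AB against B none passed (1.52% of all genes), none had an unadjusted p under 0.05, and the authors' deposited table again holds none (1.06% of its genes). The median was -0.05, and a fit with the replicate block also gave 0, though pairing of these arrays is not established. The interaction of the receptor gates, AB minus B set against A minus DN, was called for no member (0.668% of all genes), with 2 at an unadjusted p under 0.05. A p that misses the threshold does not show that the values did not differ.

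**Figure D3:**
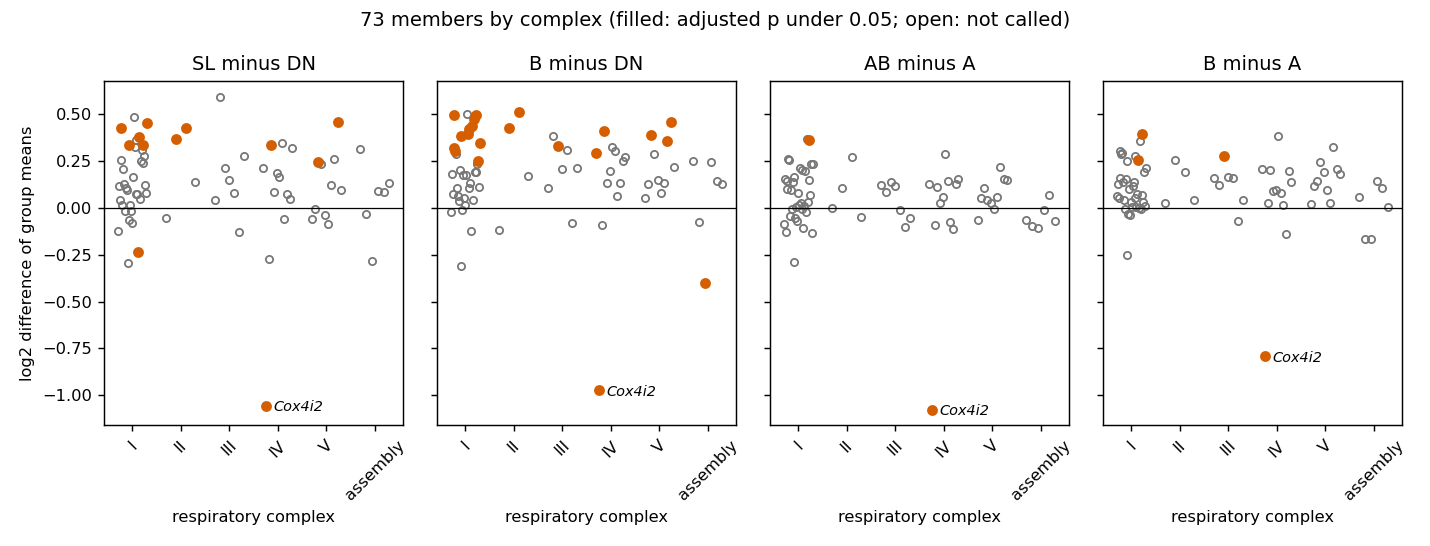
Difference of group means (log2) of the 73 members in 4 pairs, by respiratory complex. Filled orange points passed at an adjusted p under 0.05 and open points did not. Cox4i2 lies lowest in every panel, and the other called members lie between -0.40 and 0.51.

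The 5 pairs without a deposited table completed the order of the groups. In B against DN 19 members were called higher and 2 lower (45.7% of all genes, with 24.4% higher and 21.3% lower), with a median of 0.19 and 63 of 73 above 0. Of the 34 members of complex I, 11 were called and all of these were higher, such as Ndufa13 at 0.49 ± 0.12 and Ndufv1 at 0.25 ± 0.09 (adjusted p = 0.0023 and 0.0318). In complexes IV and V, Cox5b and Atp5d were higher by 0.41 ± 0.09 and 0.39 ± 0.08 (adjusted p = 0.00145 and 0.000813). The arrays did not overlap for 14 members higher in B and 2 lower, where 18.5% and 17.8% of all genes had such arrays. The count fell to 11 without DN replicate 3 or without B replicate 1, to 12 without B replicate 3, and to 11 when B and AB kept replicates 1 and 2 only. It rose to 25 without DN replicate 1, to 25 with the replicate block and to 24 without A replicate 3. Many marker lists moved with this pair. Called higher in B were 10 of 12 neutrophil, 3 of 4 monocyte and macrophage, 3 of 3 erythroid, 3 of 4 osteoclast, 8 of 9 marrow stromal reticular, 8 of 9 smooth muscle and 5 of 6 Sca-1-positive fibroblast markers, and their part was not tested. Only 4 of 10 listed monocyte and macrophage, 3 of 10 erythroid and 4 of 9 osteoclast markers were in the filtered table. Markers missing from it are not counted, so these shares do not describe the whole lists. In AB against DN 12 were called higher and 1 lower (46.1% of all genes, with 24.7% higher and 21.4% lower). That count was 8 without DN replicate 3, AB replicate 1 or AB replicate 4, 25 without AB replicate 3, 23 without DN replicate 1, 9 when B and AB kept replicates 1 and 2 only, and 7 without every array numbered 4. In SL against A 1 was higher (Ndufs7) and 1 lower (Cox4i2), where 32.6% of all genes were called (16.8% higher, 15.8% lower). That count was 1 without any one of DN replicates 3 and 4, A replicates 1 to 3, AB replicates 1, 2 and 4, B replicates 1 and 2 and SL replicates 1 and 4, and 4 with the mean of a gene's probe sets. None passed in SL against AB (9.34% of all genes) or SL against B (12.5%), where 1 member each had an unadjusted p under 0.05. The pairs share arrays, DN in some and A in others, and their counts are not independent of each other. B had the highest mean for 52.1% of the members, against 17.1% of all genes, and DN had the lowest for 67.1%, against 34.6%.

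The members moved together from array to array, also within groups. For each array the median was taken over the members' deviations from their own means over the 20 arrays. It was 0.12, -0.08, 0.10 and -0.05 in SL replicates 1 to 4, 0.12, 0.06, -0.17 and 0.11 in AB, and 0.13, -0.01, 0.07 and 0.12 in B. It was 0.12, 0.04, -0.29 and 0.06 in A and 0.09, -0.20, -0.28 and -0.05 in DN. Replicate 3 was the lowest array in AB, A and DN, and replicate 1 lay between 0.09 and 0.13 in all 5 groups. In A replicate 3 and AB replicate 3, 67 of the 73 members were below their group mean, against 55.01% and 46.9% of all genes. In DN replicate 1 only 6 members were below it. The median over all genes lay between -0.04 and 0.03. Mitochondrial ribosomal proteins, a list with no member in it, had medians of -0.19 in A replicate 3, -0.24 in DN replicate 3 and 0.11 in DN replicate 1. The range of the member median within DN or A was larger than the median difference of every pair of groups. Without every array numbered 3, a setting chosen after the data were seen, 5 members were called in SL against DN and 10 in B against DN. In AB against DN the count went the other way in that setting, from 13 to 16.

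**Figure D4:**
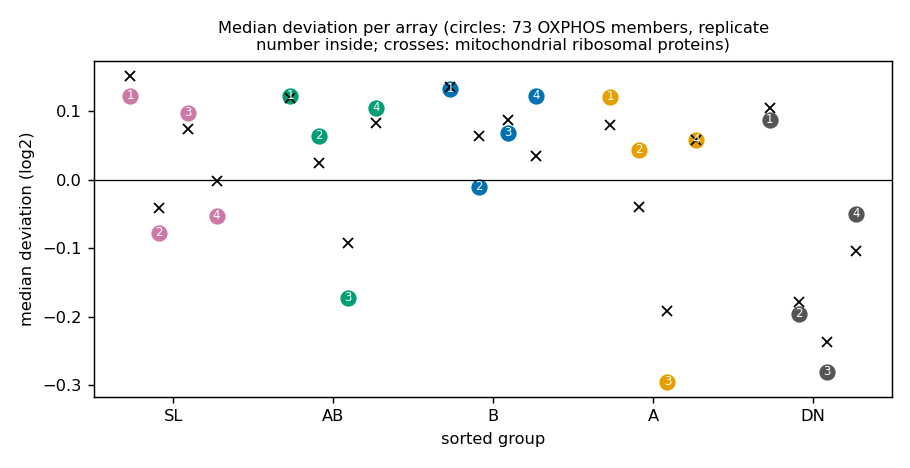
Median deviation of the 73 members from their own 20-array means in each array (circles, log2, with the replicate number inside), by sorted group, and the same for mitochondrial ribosomal proteins (crosses). Replicate 3 is lowest in AB, A and DN, and the crosses are lowest in the same array as the circles in SL, AB, A and DN.

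Other mitochondrial genes and glycolysis were set beside the members. The share of all genes called in either direction was 45.2% in SL against DN, 32.9% in AB against A and 29.7% in B against A. On the TCA list, which includes pyruvate entry, 4 of 16 (25%) rose in SL against DN and none fell, where 23.9% of all genes rose. Those that rose included Cs, citrate synthase, at 0.33 ± 0.08 (adjusted p = 0.00137), Pdha1 at 0.33 ± 0.11 (adjusted p = 0.0162) and Mpc2, a pyruvate carrier subunit, at 0.51 ± 0.20 (adjusted p = 0.0486). Cs rose by 0.21 ± 0.08 in AB against A and by 0.29 ± 0.08 in B against A (adjusted p = 0.0367 and 0.00695). Mitochondrial ribosomal proteins had 13 of 60 higher and 3 lower in SL against DN (26.7% called), with Mrps11 at 0.77 ± 0.15 and Mrps6 at -1.23 ± 0.11 (adjusted p = 0.000313 and 2.3e-08). Their median there was 0.12. On the list of other respiratory assembly factors 5 of 31 were higher and 4 lower in SL against DN (29.0% called), 3 and 4 in AB against A (22.6%), and 1 and 5 in B against A (19.4%). Foxred1, an assembly factor of complex I, differed by -1.49 ± 0.15 in SL against DN, -1.04 ± 0.15 in AB against A and -1.23 ± 0.15 in B against A (adjusted p = 8.22e-08, 1.38e-05 and 2.46e-06). Higd1a, a hypoxia-inducible protein of the respiratory chain, differed by -0.69 ± 0.12 in AB against A and -0.86 ± 0.12 in B against A (adjusted p = 0.000106 and 1.06e-05).

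Of 14 regulators of mitochondrial biogenesis, 2 were higher and 4 lower in SL against DN (42.9% called), none was higher and 4 lower in each of AB against A and B against A (28.6%), and 1 was higher and 4 lower in B against DN (35.7%, against 45.7% of all genes). Tfb1m, a mitochondrial ribosomal RNA methyltransferase, differed by -0.81 ± 0.13 in SL against DN and -0.90 ± 0.13 in AB against A (adjusted p = 3.12e-05 and 1.4e-05). Gabpb1, a subunit of the ETS-family factor also called NRF2, differed by -0.88 ± 0.13 in SL against DN and -0.56 ± 0.13 in AB against A (adjusted p = 2.23e-05 and 0.00284). The 2 regulators called higher in SL against DN were Nrf1 at 0.46 ± 0.17 and Esrra at 0.45 ± 0.15 (adjusted p = 0.0305 and 0.0171). In SL against DN, where 21.3% of all genes fell, 2 of 5 carriers of nucleotides and phosphate (Vdac2 and Slc25a3), 2 of 6 mitochondrial antioxidant enzymes (Gsr and Sod2) and 6 of 28 cytosolic ribosomal proteins (21.4%) were lower and none of these lists had a higher call, while 1 of 17 import proteins was higher and 1 lower. On the glycolysis list without Ndufa4l2, 9 of 14 fell and 1 rose in SL against DN, 10 and 1 in AB against A, and 9 and 0 in B against A, with medians of -0.53, -0.65 and -0.60. With Ndufa4l2 the numbers that fell were 10, 11 and 10 of 15. Hk2, a hexokinase, differed by -1.93 ± 0.21 in SL against DN, -1.76 ± 0.21 in AB against A and -1.83 ± 0.21 in B against A (adjusted p = 4.13e-07, 2.59e-06 and 2.22e-06). Slc2a1, the glucose transporter GLUT1, differed by -1.53 ± 0.18, -1.64 ± 0.18 and -1.49 ± 0.18 in the same 3 pairs (adjusted p = 6.64e-07, 5.17e-07 and 2.42e-06). The growth plate markers described with Cox4i2 moved with these genes too, and their part was not tested. In the authors' deposited tables, members with a q under 0.05 numbered 28 higher and 4 lower of 72 in SL against DN (61.7% of all genes there). They numbered 5 and 1 of 72 in AB against A (45%), and 11 and 1 of 71 in B against A (38.1%). These counts rest on q-values and on 8513, 8476 and 8439 genes, and are not directly comparable with those above. What made them differ was not tested. The same probe set as here stood for 54 of 72, 56 of 72 and 55 of 71 members in these pairs.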

How the data were processed

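RNA of sorted cells was hybridised to arrays with biotin label, per the labels' protocols. The authors' deposited series table holds log2 signal for 24539 probe sets, and the authors' deposited filtered table gives them as linear intensity for 12440, which on the log2 scale differed by at most 0.0075. The authors' deposited comparison tables list per gene the log2 difference with its p-value and q-value, per the file headers. The names of the deposited tables mention limma and a filter with the number 100, and the sources used here say nothing further on normalization, software or filter; 83 probe sets without a symbol were left out. All 73 members had every group mean above an intensity of 100, as did 7719 of 9129 genes.

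Groups were compared with limma 3.58.1 in R 4.3.3, fitting 1 mean for each group to all 20 arrays (15 residual and 4.34 prior degrees of freedom), two-sided tests and Benjamini-Hochberg adjustment over 9129 genes. The fit was tested on simulated data. Arrays with the same replicate number had correlated residuals for every number between AB and A (0.185 to 0.398). The same held between AB and B (0.17 to 0.422). The labels do not say what these arrays shared, so pairing is possible there but not established. Over the members alone, the correlation between AB and B was 0.31, -0.26, 0.16 and -0.19 for replicates 1 to 4. Promoters were searched with Python 3.11.15 for motifs chosen for this work, and the length of the NRF1 core was changed after a first result had been seen. The members, gene lists and rule for named genes were chosen with earlier results of these data known. Named were up to 5 called members per direction and main pair, the 6 smallest F tests, isoforms, Sdh genes, assembly factors, the highest and lowest level per complex, and up to 3 called genes per pathway list and pair. Members (Ndufb10, Ndufa3, Ndufa5, Ndufs4, Ndufv1) and regulators (Nrf1, Esrra) named outside this rule were chosen after their values were seen. The values of 1 member that the rule names are not reported here.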

Additional observations from a re-analysis of the deposited data

Results flagged for a closer look

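Single arrays stood apart from the other 3 of their group for 9 of 165 groups of 4 examined, and chance gives about 1 in 20. In SL, Uqcrc1 read 10.49 in replicate 2 (10.53 in all others), and Ndufaf2 read 7.87 in replicate 1 (7.40 to 7.42 in the others). In AB, Cox6b1 read 9.32 in replicate 3 (9.73 to 9.78). In B, Cox6b1 read 9.82 in replicate 4 (9.64 to 9.65) and Cox8a read 8.19 in replicate 2 (8.39 to 8.41). In A, Cox6b2 read 7.55 in replicate 2 (8.29 to 8.41) and Cox7a2 read 10.54 in replicate 3 (11.11 to 11.15). In DN, Cox5b read 10.25 in replicate 1 (9.93 to 9.97) and Cox7a2l read 9.79 in replicate 2 (10.15 to 10.20).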

How the results depend on the processing

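The 17 called differences of the named members in the main pairs kept their direction in every alternative run, and 8 of them kept their call in all. Counts of called members moved in some settings, and the cause was not tested. In SL against DN the count of 12 became 6 without the arrays numbered 4 and 5 without those numbered 3 (leaving out the arrays numbered 3 was a setting chosen after the data were seen), and leaving out 1 array gave 7 to 22. In AB against A the count of 2 became 4 with the mean of a gene's probe sets and 5 with the replicate block, and leaving out 1 array gave 2 to 4, with 4 without A replicate 1. In B against A the count of 4 became 8 with the mean of probe sets, 9 with the replicate block, 7 without the arrays numbered 4, 2 without those numbered 3 and 2 with both groups fitted alone, and leaving out 1 array gave 2 to 6. Residuals of B and A arrays with the same number correlated at 0.035 to 0.322, so whether the numbers pair these arrays is uncertain. Over all 5 groups the F test's 12 became 7 without the arrays numbered 4 and 6 without those numbered 3, and leaving out 1 array gave 7 to 16, with 7 without DN replicate 3 or B replicate 1. In A against DN leaving out 1 array gave 0 to 1. In AB against B and the interaction the count was 0 throughout. With all probe sets of the series table the member counts were 11, 2, 3 and 8 for SL against DN, AB against A, B against A and the F test, while the share of all genes called was 26.2%, 17.0%, 14.97% and 30.0%, against 45.2%, 32.9%, 29.7% and 50.6%. The replicate block moved no other count of the main pairs by over 1.5 times. The spread between 4 arrays and unknown signal over background limit the detection of differences as small as most of these.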
